A study of Mus musculus with 6 samples.

Results

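The respiratory chain passes electrons from NADH and succinate to oxygen through complexes I to IV of the inner mitochondrial membrane, and ATP synthase uses the proton gradient that complexes I, III and IV build. Complex II is made of nuclear gene products alone. The other complexes join nuclear subunits with subunits encoded on mitochondrial DNA, so each of them is built from the products of both genomes. Tsc2 codes for tuberin, a part of the complex that restrains mTORC1, the growth-signalling kinase that rapamycin inhibits.

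The genes were taken by symbol: those beginning Nduf, Uqcr, Atp5 or Cox4 to Cox8, the genes Sdha, Sdhb, Sdhc, Sdhd and Cyc1, and the protein-coding genes of mitochondrial DNA. This gave 106 genes of 30281 symbols, of which 93 were nuclear and 13 mitochondrially encoded. The nuclear set held 7 core and 31 accessory subunits of complex I, 7 complex I assembly factors (Ndufaf), 4 subunits of complex II, 9 genes of complex III, 18 of complex IV, 5 of the F1 part of ATP synthase, 10 of its Fo part and stalk, and 2 genes, Atp5s and Atp5sl, that carry the Atp5 name but are not subunits of the enzyme. The mitochondrial set held 7 genes of complex I, 1 of complex III, 3 of complex IV and 2 of ATP synthase.

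RNA was sequenced from 6 mouse cell cultures, with 1 library for each condition. Mouse embryonic fibroblasts (MEFs) were Tsc2-/- p53-/- or Tsc2+/+ p53-/- and had no treatment. MKOC and TJ were lines of kidney epithelial cells labelled Tsc2-null, with TJ described as derived from a secondary tumor in C57BL6 mice, and each was left untreated or given 100 nM rapamycin for 18 hours in serum-free medium. Both MEF cultures were labelled p53-/-, so the genotypes were compared on that labelled background alone, and no kidney line labelled Tsc2+/+ was in the series.

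Estimated counts summed to between 22887020 and 37505004 per library. Tsc2 RNA stood at 22.6 TPM (transcripts per 1e+06 transcripts, scaled by length) in the library labelled Tsc2+/+ and 10.5 TPM in the one labelled Tsc2-/-, and at 19.1 to 49.1 TPM in the 4 libraries labelled Tsc2-null, so Tsc2 RNA was present under every label and its level gave no check of the deletion. Trp53 RNA was present in all 6 libraries, at 26.3 and 28.5 TPM in the MEFs labelled p53-/-, so its level gave no check of that label either. The 6 fibroblast markers summed to 1791 and 2479 TPM in the MEFs and to 7.46 to 51.7 TPM in the kidney lines. The 6 epithelial markers summed to 952 to 1636 TPM in the kidney lines, where Epcam was at or near 0, and to 0.150 TPM in Tsc2+/+ and 77.7 TPM in Tsc2-/- MEFs. Of the kidney tubule markers, Pax8 and Cdh16 were high in both kidney lines while Umod was listed at 0.

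Levels of the respiratory chain transcripts were high in all cultures, and the mitochondrially encoded ones exceeded the nuclear ones everywhere. The 13 mitochondrial genes held 3.23% of the counts of the Tsc2+/+ MEF library and 3.15% of those of the Tsc2-/- one, and 1.88% in untreated MKOC, 4.22% in MKOC with rapamycin, 3.66% in untreated TJ and 4.51% in TJ with rapamycin. The 93 nuclear genes took 1.02%, 1.01%, 1.20%, 0.857%, 1.16% and 0.914% in the same order. The untreated MKOC library was the lowest of the 6 for the mitochondrial genes and the highest for the nuclear ones. By counts, the ratio of mitochondrial to nuclear transcripts was 1.57 in untreated MKOC, 3.12 to 3.17 in both MEF cultures and in untreated TJ (3.15), and 4.92 and 4.94 in the 2 rapamycin libraries.

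**Figure D1:**
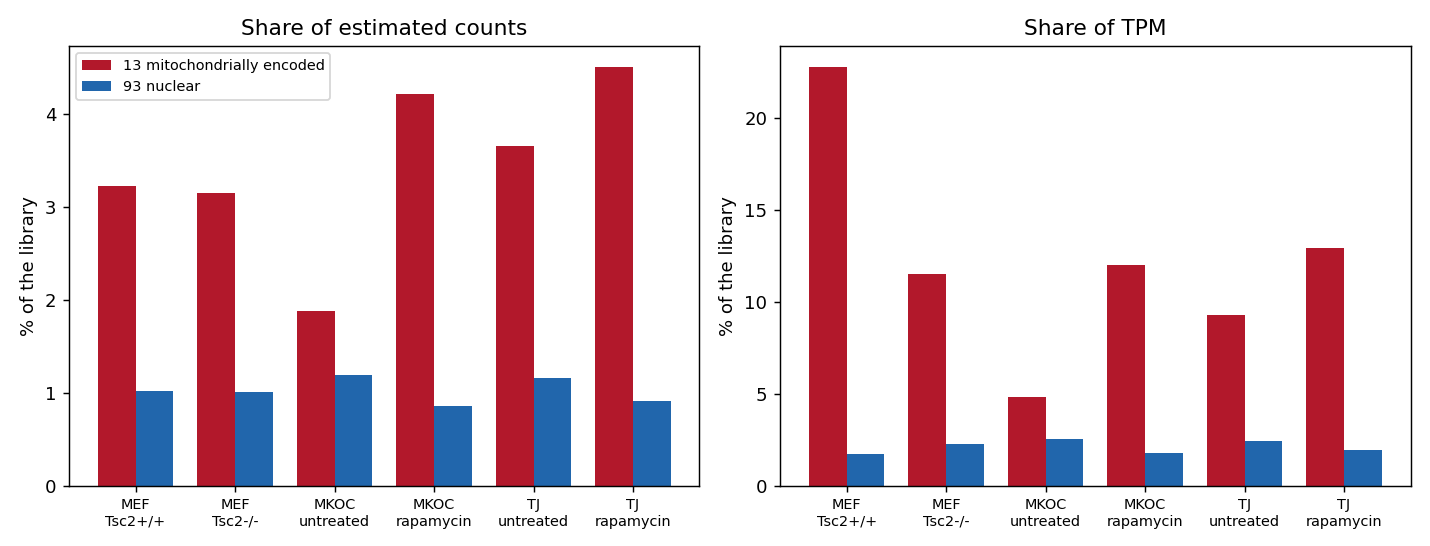
Share of each library (%, bars from 0) taken by the 13 mitochondrially encoded and the 93 nuclear genes, by estimated counts (left) and by TPM (right), 1 library per bar pair. The 2 MEF libraries stand level by counts (3.23% and 3.15%) and apart by TPM (22.8% and 11.5%) for the mitochondrial genes.

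In TPM, a unit divided by transcript length, the same ratio was 13.04 in Tsc2+/+ MEFs, 5.10 in Tsc2-/- MEFs, 1.91 and 6.65 in MKOC and 3.83 and 6.63 in TJ. The gap between the MEF libraries came with 1 gene, mt-Atp8, which codes for a small subunit of ATP synthase and has a transcript of 204 bases. The effective length by which Kallisto divides was 5.91 bases for mt-Atp8 in Tsc2+/+ MEFs, against 23.0 bases in Tsc2-/- MEFs and 18.4 to 21.9 bases in the kidney libraries. mt-Atp8 was thus given 174931 TPM in Tsc2+/+ and 47874 TPM in Tsc2-/- MEFs, although its counts per 1e+06 counts (CPM) were 872 and 710. Over transcripts of at least 300 bases the TPM ratio was 2.85 in Tsc2+/+ and 2.81 in Tsc2-/- MEFs.

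Among the nuclear genes, Atp5b, the catalytic beta subunit of ATP synthase, had the highest TPM in each of the 6 libraries, from 1239 TPM in MKOC with rapamycin to 2022 TPM in untreated TJ. The median nuclear gene stood at 149 TPM in Tsc2+/+ MEFs, 192 in Tsc2-/- MEFs, 211 and 145 TPM in MKOC without and with rapamycin, and 199.7 and 155 TPM in TJ. The gap between the MEF libraries was one of TPM, as the nuclear genes held 1.02% and 1.01% of their counts. At least 1 TPM was reached by 86 nuclear genes in Tsc2+/+ MEFs and by 88 in each of the other libraries. Cox8b and Cox8c, tissue-restricted forms of a complex IV subunit, had no count in any library, which at this depth allows up to 0.0800 to 0.131 CPM (3 counts). Ndufa4l2, Cox4i2 and Cox6b2 had at most 2 counts in each kidney library, so the kidney test covered 101 of the 106 genes, 88 of them nuclear.

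Several genes have near-copies elsewhere in the genome, and Kallisto divided reads between them. For mt-Nd3, a subunit of complex I encoded at chrM:9459-9806 on the plus strand of GRCm38, the copy was Gm28438, an unprocessed pseudogene at chr1:24612775-24613119 on the minus strand. The transcripts differed at 1 of the 345 bases compared, T3C, counted from 1 at the 5′ end of mt-Nd3. Their first 45 bases are shown with that base in capitals.
mt-Nd3: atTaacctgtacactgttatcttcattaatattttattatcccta
Gm28438: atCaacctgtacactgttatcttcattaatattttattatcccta
The pseudogene was given 61.5% of the pair's counts in Tsc2+/+ MEFs, 43.6% in Tsc2-/- MEFs and 0 counts in the 4 kidney libraries. With both added together, mt-Nd3 stood at 344 CPM in Tsc2+/+ and 346 CPM in Tsc2-/- MEFs, against 133 and 195 CPM alone.

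Copies of 5 more genes took more than 5% of the pair's counts in at least 1 library. BC002163, a processed pseudogene of the complex I subunit gene Ndufs5, took 60.6% and 56.1% in Tsc2+/+ and Tsc2-/- MEFs and none in the kidney lines. Gm3244, a processed pseudogene of Ndufb4, took between 67.1% and 75.3% in all libraries. Gm10175 took 14.8% to 38.8% of the pair with Atp5g2. Gm10221 took none and 3.65% of the pair with Atp5l in Tsc2+/+ and Tsc2-/- MEFs and 15.7% to 26.7% in the kidney libraries. Gm29216 took 7.47% to 12.9% of the pair with mt-Co1. Levels of these genes are therefore uncertain, and between MEFs and kidney lines the division itself differed most plainly for mt-Nd3, Ndufs5 and Atp5l.

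Rapamycin was compared with no treatment over the 2 kidney lines, to ask how the transcripts of both genomes stood when mTORC1 was inhibited. The nuclear genes that changed mostly fell, and the mitochondrial genes that changed all rose. Of the 88 nuclear genes tested, 54 fell and 3 rose, with 31 not passing the threshold (edgeR quasi-likelihood test with line as a block, Benjamini-Hochberg adjusted p below 0.05). Of all 12952 genes tested, 17.4% fell and 17.5% rose. Of the 13 mitochondrial genes, 11 rose and none fell. Without the line block, 26 nuclear genes passed as lower and 0 mitochondrial genes as higher, and with DESeq2 40 nuclear genes passed as lower and 5 mitochondrial genes as higher. The lines were the only replicates and left 1 residual degree of freedom beside a prior of 9.06. Each edgeR p thus rested mainly on a spread estimated over all genes, and little on a gene's own spread between 2 lines. A lower amount of RNA per cell could not be told apart from a change in the kinds of cell present.

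The median log2 fold change was -0.39 over the 88 nuclear genes and 0.85 over the 13 mitochondrial genes, beside 0.02 over all genes tested. On log2(TPM+1), the nuclear median was -0.50 in MKOC and -0.30 in TJ, and the mitochondrial median was 1.25 in MKOC and 0.34 in TJ. In both lines 70 of the 88 nuclear genes were lower with rapamycin (79.5%, against 36.9% of all genes tested), and all 13 mitochondrial genes were higher (against 39.8% of all genes). The size of the mitochondrial rise thus rested largely on MKOC, whose untreated library was the lowest of the 6 for these genes, and whether the lines differed in response could not be tested with 1 library per line and treatment.

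**Figure D2:**
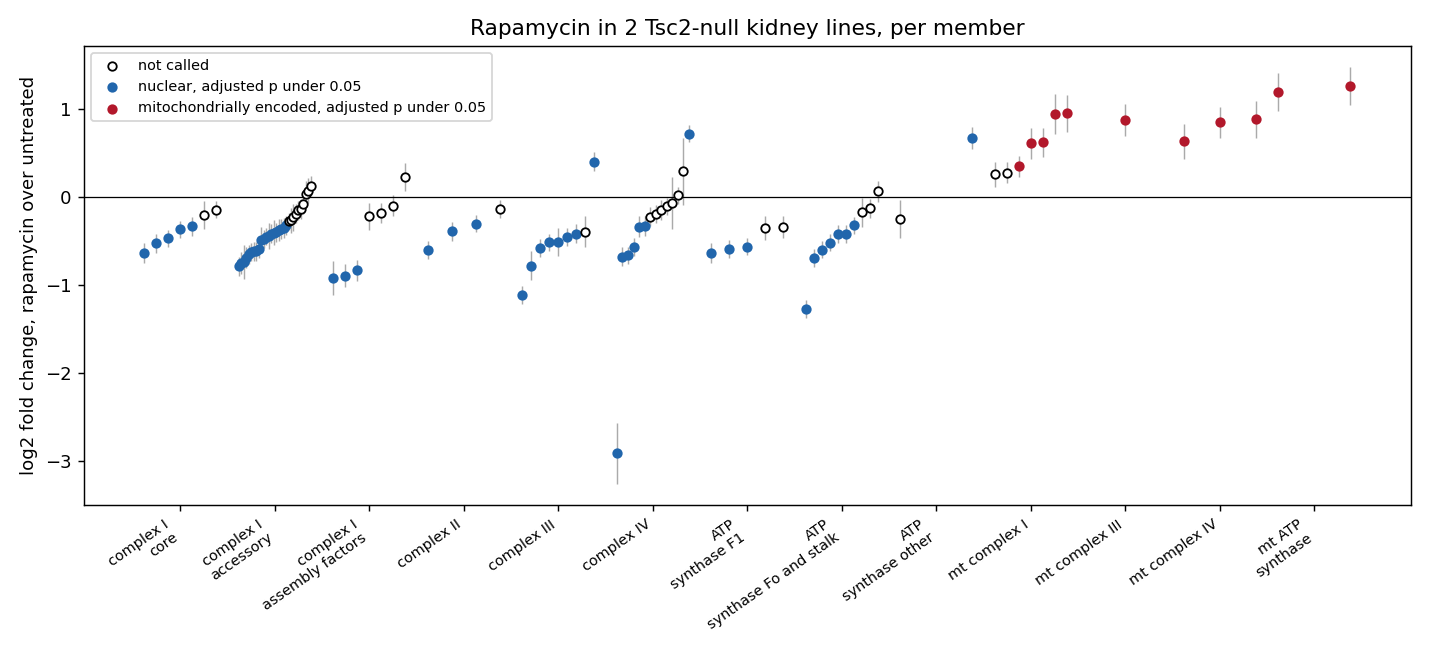
Fitted log2 fold change with rapamycin (y axis; bars are standard errors) of each tested gene, grouped by complex (x axis), with filled points for adjusted p under 0.05 and open points for genes not called. Nuclear groups lie mostly below 0, with Cox6a2 lowest at -2.91, and all 13 mitochondrially encoded genes lie above 0.

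In complex I, 5 of 7 nuclear core subunits and 20 of 30 accessory subunits fell, and none rose. Ndufs8, a core subunit that holds iron-sulfur clusters, stood at 166 TPM in untreated and 99.6 TPM in treated MKOC, and at 145 and 100.3 TPM in TJ. Its log2 fold change was -0.64 (SE 0.11, edgeR adjusted p = 0.00174).

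Among the accessory subunits the largest fall was that of Ndufv3, from 152 to 79.1 TPM in MKOC and from 176 to 104 TPM in TJ, with a log2 fold change of -0.79 (SE 0.11, edgeR adjusted p = 0.000565). Ndufb6 fell by 0.75 and Ndufb4 by 0.74 on the log2 scale, and both belong to the membrane arm. With its pseudogene copy Gm3244 added, Ndufb4 fell by 0.42 (SE 0.13). Ndufa4, counted here by its name although its product is now placed in complex IV, stood at 608 and 483 TPM in MKOC and 703 and 606 TPM in TJ and did not pass (-0.28, SE 0.10). Ndufa2, Ndufa7 and Ndufb3 had small positive values of 0.03 to 0.12 that did not pass. Ndufa2 and Ndufa7 were lower in MKOC (-0.29 and -0.23) and higher in TJ (0.36 and 0.32).

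Of the 7 Ndufaf genes, which code for proteins that help build complex I and are not part of the finished enzyme, 3 fell. Ndufaf6 stood at 23.4 and 11.8 TPM in MKOC and 18.6 and 8.83 TPM in TJ, a log2 fold change of -0.92 (SE 0.19). Ndufaf4 fell by 0.89 and Ndufaf5 by 0.84 on the log2 scale. Treated values lay below untreated ones in both lines for each of the 3. Ndufaf1, Ndufaf2, Ndufaf3 and Ndufaf7 did not pass, with values between -0.22 and 0.22.

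In complex II, the enzyme that also oxidises succinate in the tricarboxylic acid cycle, 3 of 4 genes fell. Sdhb, the iron-sulfur subunit, stood at 176 and 110 TPM in MKOC and 168 and 118 TPM in TJ, a log2 fold change of -0.60 (SE 0.11, edgeR adjusted p = 0.00191). The flavoprotein gene Sdha had -0.31 and the membrane anchor gene Sdhd -0.39. The other anchor gene, Sdhc, had -0.14 (SE 0.10) and did not pass.

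In complex III, 7 of 9 nuclear genes fell and 1 rose. Cyc1, which codes for cytochrome c1, stood at 494 and 212 TPM in MKOC and 458 and 229 TPM in TJ, so treated values were below untreated ones in each line. Its log2 fold change was -1.12 (SE 0.10, edgeR adjusted p = 5.08e-05). The structural subunit gene Uqcrq had -0.78 (SE 0.16), with a wider gap in MKOC (274 to 132 TPM) than in TJ (199.7 to 148 TPM). Uqcrh, the hinge protein gene next to cytochrome c1 in the complex, moved the other way, from 249.1 to 338 TPM in MKOC and from 296 to 385 TPM in TJ, with 0.40 (SE 0.10, edgeR adjusted p = 0.0141).

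In complex IV, 6 of 14 tested nuclear genes fell and 1 rose. Cox6a2, the form of subunit VIa known from heart and skeletal muscle, had the largest fall of all the genes at -2.91 (SE 0.35, edgeR adjusted p = 0.000237). It stood at 12.4 and 1.35 TPM in MKOC and at 12.7 and 1.98 TPM in TJ, on 118, 10, 109 and 17 estimated counts, so its treated level rested on few reads. Of the 4 muscle markers only Tnnt2 had enough counts to be tested, and it rose by 1.61, while Ckm, Acta1 and Myh7 had at most 0.617 TPM in the 4 libraries. The part of such cells in the Cox6a2 value was not tested. The widely expressed partner, Cox6a1, stood at 571 and 403 TPM in MKOC and 462 and 415 TPM in TJ, with -0.34 (SE 0.11).

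Cox7a2l, which codes for a factor that joins complexes III and IV into supercomplexes, rose from 252 to 407 TPM in MKOC and from 217 to 365 TPM in TJ, with 0.71 (SE 0.10, edgeR adjusted p = 0.000465). Its paralog Cox7a2, a complex IV subunit gene, stood at 212 and 172 TPM and at 214 and 194 TPM and did not pass. Cox7a2l thus made up 52.5% of the TPM of the Cox7a group in untreated MKOC and 68.6% with rapamycin, and 47.7% and 62.5% in TJ. Cox7a1, the muscle form, was at 14.1 to 25.3 TPM in the kidney libraries and did not pass. Cox5a, Cox5b and Cox8a, structural subunit genes, fell by 0.66, 0.68 and 0.57 on the log2 scale, while Cox6b1 (-0.11), Cox6c (0.02), Cox7b (-0.20) and Cox7c (-0.15) did not pass.

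In ATP synthase, 3 of 5 F1 genes and 7 of 10 Fo and stalk genes fell. Atp5b stood at 1915 and 1239 TPM in MKOC and 2022 and 1282 TPM in TJ, with -0.63 (SE 0.11, edgeR adjusted p = 0.00205). Its partner in the catalytic head, Atp5a1, had -0.59 and the central stalk gene Atp5c1 -0.57. The smaller F1 genes Atp5d (-0.36) and Atp5e (-0.35) did not pass and were closer to untreated levels in TJ (-0.08 and -0.10 on log2(TPM+1)) than in MKOC (-0.62 and -0.59).

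The 3 genes for subunit c, whose mature proteins form the rotor ring of Fo, did not move alike. Atp5g1 stood at 524 and 201 TPM in MKOC and 556 and 241 TPM in TJ, with -1.27 (SE 0.10, edgeR adjusted p = 2.88e-05). Atp5g3 had 525 and 352 TPM in MKOC and 492 and 357 TPM in TJ, with -0.52 (SE 0.10). Atp5g2 stood at 423 and 379 TPM in MKOC and at 370 and 454 TPM in TJ, and did not pass (0.06, SE 0.12). The share of Atp5g1 in the summed TPM of the 3 genes was 35.6% and 21.5% in MKOC and 39.2% and 22.9% in TJ, and that of Atp5g2 was 28.7% and 40.7%, and 26.1% and 43.2%. With its pseudogene copies added, Atp5g2 stood between 221 and 230 CPM in all 4 kidney libraries.

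**Figure D3:**
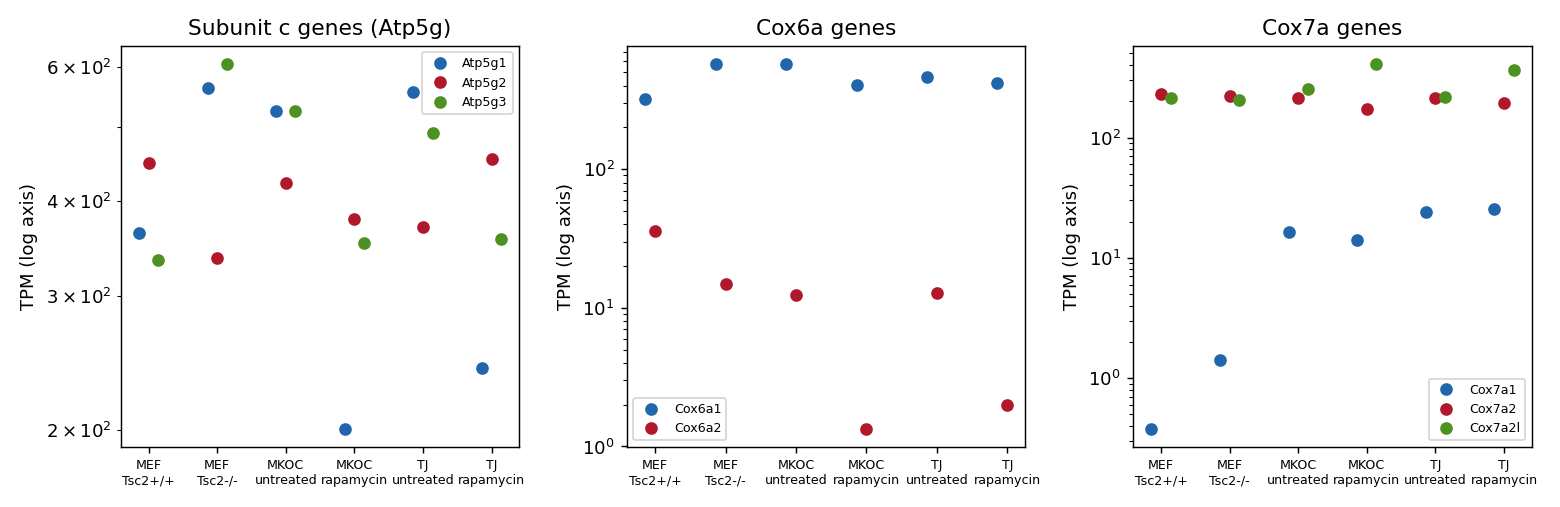
TPM (log axis) of the subunit c, Cox6a and Cox7a genes in each of the 6 libraries, 1 point per gene and library. Atp5g1 and Cox6a2 lie lower in both rapamycin libraries (201 and 241 TPM, and 1.35 and 1.98 TPM) and Cox7a2l lies higher (407 and 365 TPM).

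The mitochondrial genes of ATP synthase had the highest fitted values. mt-Atp6, the subunit that lets protons through Fo, stood at 908 and 3128 CPM in MKOC and at 1811 and 2888 CPM in TJ, with 1.19 (SE 0.22, edgeR adjusted p = 0.00232). mt-Atp8 had 1.26 (SE 0.22). mt-Cytb, the complex III gene, had 0.87 (SE 0.18), and the catalytic complex IV genes mt-Co1, mt-Co2 and mt-Co3 had 0.63, 0.88 and 0.85. In each case the untreated MKOC value was the lowest of the 4 kidney libraries.

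Among the complex I genes of mitochondrial DNA, mt-Nd1 and mt-Nd2 had 0.94 and 0.95, mt-Nd4 and mt-Nd4l 0.61 and 0.62, and mt-Nd3 0.35. mt-Nd5 (0.26, SE 0.14) and mt-Nd6 (0.27, SE 0.12) did not pass. mt-Nd6 is the only protein gene on the light strand of mitochondrial DNA. In TJ both were close to the untreated level, at 0.02 and 0.10 on log2(TPM+1), against 0.51 and 0.45 in MKOC.

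**Figure D4:**
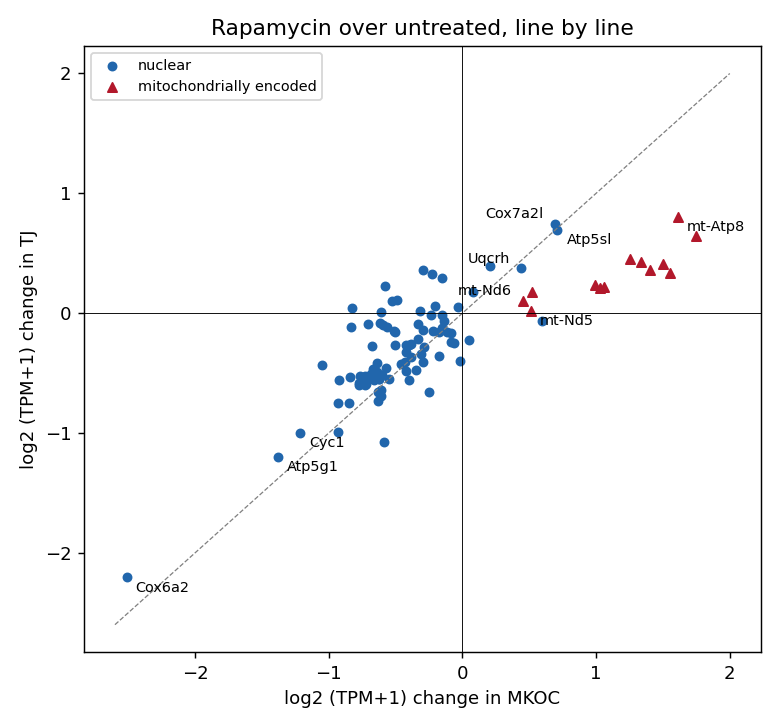
Change with rapamycin on log2(TPM+1) in MKOC (x axis) and TJ (y axis) for each tested gene, with equal change on the dashed line. Of the 88 nuclear genes 65 lie above that line (46.0% of all genes do), with medians of -0.50 in MKOC and -0.30 in TJ, whereas the mitochondrially encoded genes, at medians of 1.25 and 0.34, lie below it.

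Atp5sl, which despite its name codes for an assembly protein of complex I, rose from 21.7 to 36.2 TPM in MKOC and from 18.3 to 30.2 TPM in TJ, with 0.67 (SE 0.13, edgeR adjusted p = 0.00272). Atp5s stood between 5.80 and 7.95 TPM in the kidney libraries and did not pass. Cox7a2l, Uqcrh and Atp5sl were the 3 nuclear genes that rose.

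Other genes of mitochondrial respiration were described from lists, beside 17.4% of all genes tested that fell. In the tricarboxylic acid cycle 13 of 17 genes fell (76.5%) and none rose (median -0.43), among them Idh3a, a subunit of the NAD-dependent isocitrate dehydrogenase, at -0.83 (SE 0.10). Of 17 genes for expression of mitochondrial DNA, 9 fell (52.9%) and 1 rose: Lrpprc, which stabilises mitochondrial mRNA, had -0.92 (SE 0.10) and its partner Slirp -0.52, Tfam, which packages and transcribes mitochondrial DNA, had -0.40, and the DNA polymerase gene Polg had 0.36. Of 37 further assembly factors, 11 fell (29.7%) and 1 rose, with Ecsit (complex I) at -0.81 and Uqcc3 (complex III) at 0.86. Of 17 electron carrier and coenzyme Q genes, 6 fell (35.3%), including Cycs, cytochrome c, at -0.73 and Dhodh, which passes electrons to coenzyme Q, at -1.16. Of 10 regulators, 3 fell (30.0%): the coactivators Ppargc1a (-0.76) and Ppargc1b (-0.75) and Gabpb1 (-0.63), a subunit of an ETS-family activator.

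Promoters of the nuclear genes were read for 4 motifs, each searched on both strands in windows from 250 bases before to 50 after the RefSeq start (GRCm38.p6): the GC-rich form of the NRF1 site with 1 free base, CCGGAAG of the ETS family, AAGATGG of YY1 and AAGGTCA, a nuclear receptor core site that estrogen-related receptors bind. RefSeq windows were matched for 76 of the 93 nuclear genes. The NRF1 form stood in 34.0% of the 47 windows of genes that fell, in 13.8% of the 29 windows of genes not called and in none of the 4 windows of genes that rose, beside 9.63% of the 12206 windows of all genes tested. The ETS form stood in 19.1%, 24.1% and 17.1% of the windows of genes that fell, of genes not called and of all genes. YY1 letters stood in 17.0%, 10.3% and 7.08%, and the receptor site in 10.6%, 10.3% and 3.25%. Of the 4 windows of genes that rose, 1 held the ETS form, 2 held YY1 letters and none held the receptor site. These shares are descriptions of letters, with no test. The 120 bases before the start are shown for Ndufb4 and Sdha, which fell and hold several NRF1 forms, for Atp5g1, which fell the most of the abundant genes, and for Cox7a2l, which rose the most. Neither Atp5g1 nor Cox7a2l has a match in these bases. Capitals mark matches to any of the 4 motifs. The windows are chr16:37654369-37654488, chr13:74350241-74350360, chr11:96075632-96075751 and chr17:83514334-83514453 in that order, all on the minus strand.
Ndufb4: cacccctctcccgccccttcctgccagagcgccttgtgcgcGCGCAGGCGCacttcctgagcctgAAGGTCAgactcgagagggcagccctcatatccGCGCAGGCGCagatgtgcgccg
Sdha: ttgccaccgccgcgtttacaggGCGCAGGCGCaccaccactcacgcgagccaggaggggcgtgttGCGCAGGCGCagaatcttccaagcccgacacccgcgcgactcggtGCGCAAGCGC
Atp5g1: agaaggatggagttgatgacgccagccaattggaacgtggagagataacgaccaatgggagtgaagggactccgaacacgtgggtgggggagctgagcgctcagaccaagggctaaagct
Cox7a2l: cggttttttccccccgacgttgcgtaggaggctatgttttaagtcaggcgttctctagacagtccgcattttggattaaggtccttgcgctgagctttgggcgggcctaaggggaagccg

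Of the genes named by rule, Sdha, Cox4i1, Cox6a1, Ndufb4, mt-Nd1, mt-Nd2, mt-Nd3, mt-Co2, mt-Co3 and mt-Atp6 did not pass with DESeq2, and mt-Nd3, mt-Nd4, mt-Nd4l, mt-Co1, Sdha, Cox4i1 and Cox6a1 did not pass with limma. By edgeR without the adjustment, 58 nuclear genes were lower and 12 mitochondrial genes higher at p below 0.05. Both kidney lines carried more epithelial marker RNA with rapamycin (952 to 1492 TPM in MKOC and 968 to 1636 TPM in TJ), and 3 of the 4 epithelial markers tested rose. The fibroblast markers summed to 26.3 and 51.7 TPM in MKOC and to 7.46 and 12.9 TPM in TJ, and Dcn (0.82) and Col3a1 (1.53) were the 2 of 5 that rose. Dcn made up most of each sum (25.5 and 50.3 TPM in MKOC, 6.73 and 10.5 TPM in TJ). Col3a1 was low, at 0.139 to 1.07 TPM. The tubule marker Cdh16 (0.37) and the macrophage marker Csf1r (0.45) also rose, and no tested marker of any list fell. The part of these shifts in the values above was not tested.

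The lines were then compared with each other, with treatment in the model. None of the 88 nuclear genes passed in either direction (edgeR), beside 5.47% of all genes higher in TJ and 3.32% lower. Without adjustment, 4 were higher and 5 lower at p below 0.05, DESeq2 called none after adjustment and limma called 1 higher, Cox7a1, the muscle form named above. Nuclear fitted values ran from -0.33 (Ndufaf5) to 0.87 (Cox7b2), with a median of 0.05. The 4 Sdh genes lay between -0.01 and 0.06.

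All 13 mitochondrial genes had positive fitted values for TJ over MKOC, from 0.06 to 0.85, and 3 passed: mt-Nd2 with 0.85 (SE 0.21), mt-Nd6 with 0.69 (SE 0.12) and mt-Nd5 with 0.59 (SE 0.14), at edgeR adjusted p of 0.0315, 0.00653 and 0.0315. limma called none of the 13, and mt-Nd2 did not pass with DESeq2 (adjusted p = 0.535) or in edgeR without scaling (adjusted p = 0.0514). mt-Nd6 stood at 2114 and 2892 TPM in MKOC without and with rapamycin, and at 3896 and 4182 TPM in TJ, so that both TJ libraries lay above both MKOC libraries. The median over the 13 genes was 0.54 in the fit. On log2(TPM+1) it was 0.97 between the untreated libraries and 0.14 between the treated ones, so the difference was mainly one of the untreated MKOC library. Of the 10 regulators, 1, Ppargc1a, was higher in TJ at 0.85 (edgeR adjusted p = 0.00244). Of the 17 electron carrier and coenzyme Q genes, 3 were lower, Pdss1 (-0.43), Coq5 (-0.44) and Coq7 (-0.59), and no gene of the other lists of mitochondrial genes passed. Single markers of other cell types passed between the lines too, with Dcn at -2.12 and the endothelial marker Cdh5 at -1.57 in TJ over MKOC, and Csf1r at 0.94 and Cdh16 at 0.47. Other members of their lists went the other way without passing. These were the fibroblast markers Col1a1 (0.76), Col1a2 (0.35), Col3a1 (0.54) and Pdgfra (1.66), the endothelial marker Pecam1 (0.32) and the macrophage marker Cd68 (-0.05). The part of such marker differences in the values above was not tested.

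The MEF cultures were compared to ask how loss of Tsc2 bears on the same genes. With 1 library per genotype there was no replicate check and no test, and differences of at least 2-fold on (TPM+1) were counted. In the library labelled Tsc2-/-, 10 of 88 nuclear genes were higher and 1 lower by this measure, and none of the mitochondrial genes was higher and 1, mt-Atp8, lower. These 88 genes held Cox6b2 in place of Cox7b2, which was among the 88 of the kidney test. Of all 12771 genes with at least 1 TPM in either library, 25.2% were higher and 5.18% lower. The median of all genes was itself 0.45 on the log2 scale in TPM and 0.11 in CPM. In CPM, 2 of the nuclear genes were at least 2-fold higher and 2 lower, beside 17.2% and 7.58% of all genes. With TPM scaled to a median ratio of 1, these were 2 and 4 nuclear genes, beside 15.8% and 8.21%.

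Relative to that shift, the respiratory chain genes lay near the middle of all genes. The nuclear median was 0.37 in TPM and 0.06 in CPM, and the mitochondrial median was 0.34 in TPM and -0.00 in CPM. Of the 88 nuclear genes 40 lay above the all-gene median in TPM and 39 in CPM. The 4 Sdh genes lay between 0.36 and 0.54 in TPM and between -0.00 and 0.10 in CPM.

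**Figure D5:**
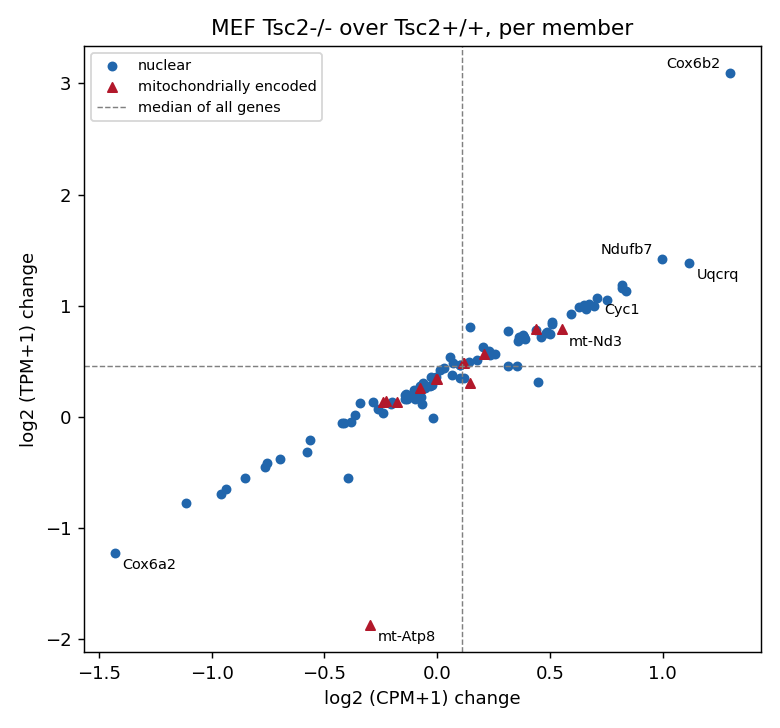
Difference between Tsc2-/- and Tsc2+/+ MEFs per gene on log2(CPM+1) (x axis) and log2(TPM+1) (y axis), with dashed lines at the median of all genes (0.11 and 0.45). Farthest from the diagonal band lie mt-Atp8, at -0.30 in CPM and -1.87 in TPM, and Cox6b2, which had no count in Tsc2+/+ MEFs.

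Of the 10 higher genes, 4 were among the 30 accessory subunits of complex I (13.3%) and 4 among the 9 complex III genes (44.4%), beside 25.2% of all genes. In CPM, 0 of these accessory subunits and 1 complex III gene were at least 2-fold higher. Ndufb7, an accessory subunit of complex I, stood at 59.2 TPM in Tsc2+/+ and 160 TPM in Tsc2-/- MEFs (log2 difference 1.42 in TPM and 0.999 in CPM). Uqcrq stood at 153 and 402 TPM (1.39 and 1.12). Cyc1 stood at 176 and 371 TPM (1.07 and 0.71). Ndufa9, Ndufa2, Uqcr10, Uqcr11 and Ndufa11 had 1.02 to 1.19 in TPM and 0.67 to 0.84 in CPM. Atp5d, an F1 subunit gene, stood at 144 and 290 TPM, and Ndufc1 followed at 0.997 in TPM and 0.70 in CPM. Cox6b2, the testis form of a complex IV subunit, was at 0 in Tsc2+/+ MEFs and had 35 counts in the Tsc2-/- library, which against a floor of 3 counts is at least 18.2-fold higher in CPM.

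Cox6a2 had the lowest nuclear value, at 35.9 TPM in Tsc2+/+ and 14.8 TPM in Tsc2-/- MEFs (-1.23 in TPM and -1.43 in CPM), on 522 and 109 counts. Ndufb11 stood at 159 and 92.8 TPM (-0.77 and -1.11), Ndufb5 at 161 and 99.0 TPM (-0.69 and -0.96) and Atp5f1, the stator stalk subunit b gene, at 367 and 234 TPM (-0.65 and -0.93). Uqcrh had -0.55 and Atp5g2 -0.41 in TPM. Among subunit c genes, Atp5g2 held 39.1% of the summed TPM in Tsc2+/+ and 22.4% in Tsc2-/- MEFs, Atp5g1 held 31.7% and 37.4%, and Atp5g3 held 29.2% and 40.2%. Cox7a2l held 48.0% and 47.7% of the Cox7a group.

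Of the mitochondrial genes in the MEFs, mt-Nd1 had 0.44 in CPM and mt-Nd3 0.55, the latter with the divided reads described above. mt-Co2 and mt-Co3 stood at 4075 and 4073 CPM and at 4378 and 4362 CPM in Tsc2+/+ and Tsc2-/- MEFs. mt-Co1 had -0.24, mt-Nd5 -0.23 and mt-Nd6 -0.18 in CPM, and the others lay between -0.30 and 0.21. Besides epithelial markers, the fibroblast markers differed between the MEF cultures. Of the 6, 5 were higher in Tsc2-/- than in Tsc2+/+, from Dcn (7.08 and 422 TPM in Tsc2+/+ and Tsc2-/-) and Pdgfra (10.8 and 36.1 TPM) to Thy1 (listed at 0 and 7.36 TPM), Col1a1 (274 and 474 TPM) and Col3a1 (503 and 751 TPM), and Col1a2 was lower (996 and 788 TPM). Markers of other cell types were at low levels and did not all differ the same way. Higher in Tsc2-/- MEFs were the macrophage markers Csf1r (0.0162 and 1.77 TPM) and Cd68 (1.69 and 6.78 TPM). So were Lrp2 (0.366 and 6.02 TPM), Kdr (listed at 0 and 1.23 TPM) and the muscle marker Tnnt2 (at or near 0 and 1.63 TPM). Lower were the macrophage marker Lyz2 (0.740 and 0.119 TPM) and the endothelial marker Pecam1 (0.285 and 0.193 TPM). The muscle markers Ckm (0.0260 and 0 TPM) and Myh7 (0.0572 and 0.018 TPM) were lower too. The part of such differences between the cultures in the values above was not tested.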

How the data were processed

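RNA from 6 mouse cell cultures was prepared as poly(A)-selected stranded libraries. The authors trimmed reads with Trimmomatic and quantified transcripts with Kallisto (version not given in the sources used here), and for 88198 transcripts deposited the estimated count, the TPM, the length and the effective length. The methods name a human reference, while the identifiers are those of mouse. Their deposited fold change, a ratio per transcript, was used for its gene symbols alone, and 1006 transcripts had none. Poly(A) selection bears on mitochondrial RNA, whose tails are short, so the levels of the 2 genomes are not those of total RNA.

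Estimated counts and TPM were summed per symbol, and counts were rounded for testing. The genes and lists were chosen with earlier results of these data known. The kidney libraries were fitted in R 4.3.3 with edgeR 4.0.16 (filterByExpr, TMM scaling, line and treatment as terms, adjusted p below 0.05), with 1 residual degree of freedom and a prior of 9.06. The lines pair the libraries as the same cells, and deviations of a line's libraries correlated at 0.562. On simulated data 194 of 200 genes changed 2-fold were recovered, with 7 false calls among 12812 genes. The simulation gave every gene the same dispersion and both lines the same response, and changed abundant genes alone. Its rates therefore do not carry over to smaller changes or to lines that respond differently. DESeq2 1.42.0 and limma 3.58.1 were alternatives. MEFs were compared on log2(TPM+1) without a test. Genes named were all mitochondrial and Sdh genes, isoform groups, and up to 10 nuclear genes with the largest rise and fall in each comparison. Others named in the text were chosen after their values were seen. Near-copies were transcripts of other symbols that share at least 25% of a gene's 31-base words. The depth, 22887020 to 37505004 counts, puts 3 counts at 0.0800 to 0.131 CPM. Coordinates are those of GENCODE M21 and RefSeq on GRCm38.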

Additional observations from a re-analysis of the deposited data

Results flagged for a closer look

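In 13 of the 88 nuclear genes tested the lines moved in opposite directions with rapamycin on log2(TPM+1) (14.8%, against 23.4% of all genes tested), and none of the 13 was called over both lines, which genes of opposite sign can hardly be. In 11 of them the value was negative in MKOC and positive in TJ. In complex I these were Ndufs7 (-0.49 in MKOC and 0.11 in TJ), Ndufa2 (-0.29 and 0.36), Ndufa7 (-0.23 and 0.32), Ndufa11 (-0.53 and 0.098) and Ndufb7 (-0.61 and 0.0060). In the other complexes they were Uqcr11 (-0.82 and 0.043), Cox6c (-0.030 and 0.052), Cox7a1 (-0.21 and 0.057), Cox7c (-0.32 and 0.016), Atp5g2 (-0.16 and 0.30) and Atp5l (-0.58 and 0.23). Ndufaf1 (0.052 and -0.22) and Cox7b2 (0.60 and -0.066) went the other way. With 1 library per line and treatment these differences between the lines were not tested, and the values of Atp5g2 and Atp5l move with the reads given to their copies.

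Reads were also given to pseudogenes outside the gene set. Gm29216, which shares sequence with mt-Co1, had 30516 counts in Tsc2+/+ and 20223 in Tsc2-/- MEFs, 27798 and 65213 in MKOC without and with rapamycin, and 50128 and 71210 in TJ. Gm28438, the copy of mt-Nd3, had 7941 and 3621 counts in the 2 MEF libraries and none in the kidney lines.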

How the results depend on the processing

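For rapamycin, the nuclear count of 54 lower was 40 to 57 under the other normalizations, tools and filter. The mitochondrial count of 11 higher was 5 with DESeq2 and 7 with limma on log2(TPM+1), and 10 to 13 under the other scalings and without a filter. Without the replicate block the counts were 26 and 0. With 1 line left out there is no test, and the mitochondrial median in CPM was 0.37 without MKOC and 1.29 without TJ. With near-copies added, an alternative chosen after seeing the data, Atp5g2 turned from 0.064 to -0.000272 for rapamycin and to -0.031 between lines, and the fall of Ndufb4 went from -0.74 to -0.42. Between lines, Sdhb and Sdhd turned to 0.016 and 0.00781 without scaling and to 0.014 and 0.0060 with limma, limma called 1 nuclear gene higher (Cox7a1), and the mitochondrial count of 3 higher was 5 with DESeq2, 0 with limma and 11 without a filter. For MEFs, nuclear counts higher and lower were 2 and 2 in CPM, 2 and 4 with TPM scaled to a median ratio of 1, 3 and 2 over transcripts of at least 300 bases, 31 and 4 at 1.5-fold, and 3 higher without mitochondrial transcripts. The MEF medians less the all-gene median, nuclear then mitochondrial, were -0.047 and -0.11 in CPM, -0.12 and -0.15 scaled, -0.0697 and -0.13 over at least 300 bases, -0.12 and -0.15 at a pseudocount of 0.1, -0.10 and -0.13 at 0.5, 0.021 and 0.0035 at 5, 0.36 and 0.34 without a filter, -0.088 and -0.12 at 10 TPM or more, -0.086 and -0.15 with near-copies, and -0.10 for nuclear genes without mitochondrial transcripts. The causes were not tested. The mitochondrial to nuclear ratio in Tsc2+/+ and Tsc2-/- MEFs, MKOC without and with rapamycin and TJ without and with it was 3.17, 3.12, 1.57, 4.92, 3.15 and 4.94 by counts, 2.85, 2.81, 1.18, 3.75, 2.35 and 3.61 over at least 300 bases, and 12.99, 5.20, 2.04, 7.17, 4.10 and 7.12 with near-copies. Depth limits the 5 untested genes and the genes with few counts, such as Cox6a2 with rapamycin, Cox7b2 in all libraries (0 to 39 counts) and Cox7a1 in MEFs (2 and 4 counts).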
